A study of Mus musculus with 3 samples.

Results

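Mast cell transcripts in the adult mouse lacrimal gland (LG) were followed through 5 genes: *Mcpt4*, *Cma1*, *Tpsb2*, *Cpa3* and *Fcer1a*. These were 5 of the 32285 genes counted by scRNAseq, and all 5 were found in each of the 3 matrices of called barcodes, that is, droplets taken to hold a cell. They were chosen by their UMI counts in these same matrices, as genes held by few barcodes. The question was which barcodes held these transcripts, whether the same barcodes held several of them, and how far the transcripts had spread into macrophages and other cells as free RNA. One library came from females and a pair of libraries, male 1 and male 2, from males. Every library was made from 6 glands of 3 C57BL/6J mice aged 2 months, dissociated with collagenase, dispase and accutase and depleted of erythrocytes and dead cells. The female library was processed at another core facility and on another day than the male libraries, so these differences cannot be told apart from sex, and no test of sex was made on 1 female library. As each library pooled its animals, values of single mice were not available, and p-values measure the spread between 3 libraries.

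Mast cells are tissue-resident leukocytes that store serine proteases, carboxypeptidase A, histamine and heparin in secretory granules and release them when the high-affinity IgE receptor or other receptors are triggered. In mice, connective tissue mast cells are known for the chymases encoded by *Mcpt4* and *Cma1*, the tryptase encoded by *Tpsb2* and the carboxypeptidase encoded by *Cpa3*, while mucosal mast cells are known for *Mcpt1* and *Mcpt2*. *Fcer1a* encodes the IgE-binding chain of the high-affinity receptor, which basophils also carry.

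On build GRCm38, the chymase genes lay on the minus strand of chromosome 14, *Mcpt4* (ENSMUSG00000061068) at chr14:56059629-56062313 and *Cma1* (ENSMUSG00000022225) at chr14:55941451-55944675, with 114953 bases between them. *Tpsb2* (ENSMUSG00000033825) was at chr17:25366305-25369098 on the plus strand, *Cpa3* (ENSMUSG00000001865) at chr3:20215620-20242181 on the minus strand and *Fcer1a* (ENSMUSG00000005339) at chr1:173221284-173227214 on the minus strand. No other protein-coding gene overlapped them, and the microRNA gene *Mir7007* lay within *Cpa3*. Because these counts come from reads at the 3′ end, the last 500 bases of the longest transcript of each gene were compared with all other GENCODE M21 transcripts. Of 451 windows of 50 bases, none of *Tpsb2*, *Cpa3* or *Fcer1a* lay in a transcript of another gene. In *Mcpt4*, 58 windows (12.9%) were shared with *Cma2* or *Mcpt9*, which had 1 and 0 UMIs in all called barcodes. In *Cma1*, 56 windows (12.4%) were shared with the gene model *Gm48934*, so some reads of both genes could have been counted elsewhere or not at all.

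The promoters are shown because the genes were detected in the same few barcodes and the GATA factor gene *Gata2* was among the genes tested below. RefSeq (GRCm38.p6) gave promoters for 4 of the 5 genes, from 250 bases before to 50 bases after the start. They were chr14:56062261-56062560 for *Mcpt4*, chr14:55944626-55944925 for *Cma1*, chr3:20242132-20242431 for *Cpa3* and chr1:173227180-173227479 for *Fcer1a*, all read 5′ to 3′ on the minus strand. Capitals mark GATAA or its reverse complement TTATC, and CATGTG or its reverse complement CACATG, which do not overlap each other here.
Mcpt4 promoter: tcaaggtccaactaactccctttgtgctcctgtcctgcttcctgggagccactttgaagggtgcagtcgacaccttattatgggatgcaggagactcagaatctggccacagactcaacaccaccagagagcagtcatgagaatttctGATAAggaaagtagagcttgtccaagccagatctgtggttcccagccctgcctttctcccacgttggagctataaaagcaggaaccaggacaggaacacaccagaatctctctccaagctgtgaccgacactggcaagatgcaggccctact
Cma1 promoter: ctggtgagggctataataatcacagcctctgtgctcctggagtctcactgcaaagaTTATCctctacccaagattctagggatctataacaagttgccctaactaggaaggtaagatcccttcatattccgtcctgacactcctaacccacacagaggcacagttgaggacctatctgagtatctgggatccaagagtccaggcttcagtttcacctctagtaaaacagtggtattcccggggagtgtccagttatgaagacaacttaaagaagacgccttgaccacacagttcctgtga
Cpa3 promoter: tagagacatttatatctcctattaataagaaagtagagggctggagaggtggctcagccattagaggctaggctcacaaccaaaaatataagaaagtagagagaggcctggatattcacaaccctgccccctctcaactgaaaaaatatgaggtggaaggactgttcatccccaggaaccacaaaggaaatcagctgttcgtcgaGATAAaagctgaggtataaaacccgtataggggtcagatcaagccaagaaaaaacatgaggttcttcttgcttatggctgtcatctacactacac
Fcer1a promoter: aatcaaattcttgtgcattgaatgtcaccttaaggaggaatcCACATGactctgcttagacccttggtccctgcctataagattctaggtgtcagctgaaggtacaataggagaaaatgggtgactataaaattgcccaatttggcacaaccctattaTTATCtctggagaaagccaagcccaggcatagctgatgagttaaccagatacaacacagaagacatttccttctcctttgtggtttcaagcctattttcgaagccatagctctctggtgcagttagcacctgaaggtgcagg
Each of the 4 promoters held GATAA or TTATC once, at 102 bases before the start in *Mcpt4*, 194 in *Cma1*, 45 in *Cpa3* and 92 in *Fcer1a*. Of 32851 promoters of this length, 25.4% held either. CATGTG or CACATG occurred in the *Fcer1a* promoter alone, 208 bases before its start, and in 14.2% of all promoters. A match of letters is a description and not a bound site.

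The deposited counts of unique molecular identifiers (UMIs), each one captured RNA molecule, totalled 63066640, 40609390 and 44661762 over 9737, 6422 and 6899 called barcodes in the female, male 1 and male 2 libraries. After the limits on UMIs, genes and mitochondrial share and the removal of likely doublets, 7652, 5295 and 5397 cells were kept, with medians of 3254, 1885 and 1789 UMIs. Called libraries shared 16, 18 and 12 barcode sequences in pairs, none of them rich in mast cell transcripts. In the other libraries' matrices of all barcodes, the barcodes rich in these transcripts held 0 UMIs of the 5 genes.

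Only 43 of 23058 called barcodes held any UMI of the 5 genes, and 38 of these were kept cells. A kept cell with at least 10 summed UMIs from at least 2 of the genes was taken as a mast-rich barcode. This rule reads the 5 genes themselves, so their levels in these barcodes are a description without a test. It gave 22 of 18344 kept cells, with 11 of 7652 in the female library (0.144%, exact 95% binomial interval 0.0718 to 0.257%), 5 of 5295 in male 1 (0.0944%, 0.0307 to 0.2202%) and 6 of 5397 in male 2 (0.111%, 0.0408 to 0.242%). The intervals of the 3 libraries overlapped. They cover counting error only, and tissue dissociation can change the share of a cell type. The smallest sum inside the rule was 13 UMIs and the largest 267, while the largest sum in any other kept cell was 4, so no kept cell had a sum between 4 and 13. A female called barcode removed for its doublet score lay in that gap, with 9 UMIs from 3 of the genes. A male 1 and a male 2 barcode, both with 13, lay just inside the limit. Mast-rich barcodes held 1617 to 5895 UMIs in the female library, 1187 to 2054 in male 1 and 834 to 1490 in male 2. Tear products such as *Scgb*, *Obp* and *Mup* transcripts, which acinar cells secrete and which also float free, took 30.5%, 44.1% and 52.3% of these UMIs.

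**Figure D1:**
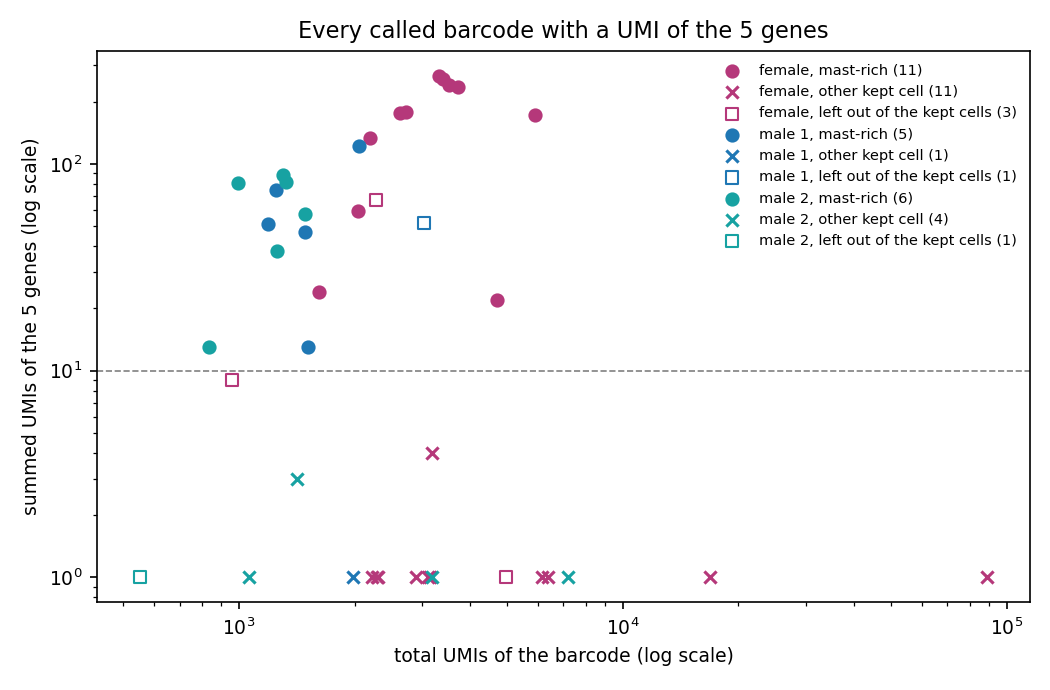
Summed UMIs of *Mcpt4*, *Cma1*, *Tpsb2*, *Cpa3* and *Fcer1a* (log scale) against total UMIs (log scale) in each of the 43 called barcodes with any. Filled circles are the 22 mast-rich barcodes, crosses the 16 other kept cells and open squares the 5 called barcodes left out of the kept cells, and the dashed line marks 10 UMIs. No kept cell lies between 4 and 13 UMIs, and a female barcode left out for its doublet score lies at 9.

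*Mcpt4*, encoding the chymase mMCP-4, was read from 10 of 11 female mast-rich barcodes with a median of 41 UMIs and a maximum of 88, from 4 of 5 in male 1 with a median of 22 and a maximum of 37, and from all 6 in male 2 with 7 to 40 UMIs and a median of 26. Its summed level per library was 13505, 13214 and 20819 CPM, the gene's UMIs scaled to a common total of the barcodes' UMIs, or 15846 ± 4309 (SD, n = 3 libraries). The other 18322 kept cells held 2 *Mcpt4* UMIs in all. *Cma1*, encoding the chymase mMCP-5, was read from all 22 mast-rich barcodes, with 5 to 99 UMIs in the female library (median 53), 10 to 57 in male 1 (median 18) and 1 to 39 in male 2 (median 18). At 15127, 15617 and 15961 CPM (15568 ± 419, SD, n = 3), *Cma1* varied the least in CPM between libraries of the 5 genes, relative to its mean. The totals behind these CPM include free RNA. Tear products took 30.5%, 44.1% and 52.3% of them in the female, male 1 and male 2 libraries, so CPM can differ between libraries through this alone. It was also the gene found most often elsewhere, with 10 UMIs in 7 other kept cells.

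The tryptase gene *Tpsb2* was read from 20 of the 22 mast-rich barcodes, with medians of 27, 5 and 5.5 UMIs and maxima of 51, 14 and 10 in the female, male 1 and male 2 libraries. It reached 7130, 4138 and 4719 CPM, or 5329 ± 1587 (SD, n = 3), and 1 UMI lay in another kept cell. *Cpa3*, encoding mast cell carboxypeptidase A3, was read from all 22, with medians of 43, 14 and 9 UMIs and maxima of 83, 19 and 18. Its level was 13086, 7875 and 8189 CPM, or 9717 ± 2922 (SD, n = 3), with 7 UMIs in 6 other kept cells. For *Tpsb2* and *Cpa3* the female library stood above both male libraries in CPM, and for *Mcpt4* male 2 stood above the other libraries. These CPM were not corrected for the unequal share of free RNA, so the order of libraries in level cannot be read from them. *Fcer1a* gave few UMIs, 19 in 5 female barcodes, 2 in 2 barcodes of male 1 and 1 in 1 barcode of male 2, and 1 more UMI lay in another kept cell of male 2. At 1000 UMIs per barcode, which 20 of the mast-rich barcodes reached, the expected share with a *Fcer1a* UMI was 30.5%, 29.5% and 16.8% against 45.5%, 40% and 25% as measured in those barcodes. Each protease was thus read from 20 or 22 of the 22 barcodes and the receptor chain from 8.

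The makeup of the summed UMIs was as follows. *Mcpt4* took 27.4% of them in the female library (exact 95% interval 25.3 to 29.5%), 32.1% in male 1 (27.0 to 37.7%) and 41.8% in male 2 (36.6 to 47.1%). *Cpa3* took 26.5% (24.5 to 28.6%), 19.2% (14.9 to 24.0%) and 16.4% (12.8 to 20.7%), and *Tpsb2* took 14.4% (12.8 to 16.2%), 10.1% (6.94 to 14.0%) and 9.47% (6.65 to 13.0%). The *Cma1* share was 30.6% (28.5 to 32.8%), 38.0% (32.5 to 43.7%) and 32.0% (27.2 to 37.1%). Compared across the libraries, the share of *Mcpt4* was thus largest in male 2 and the share of *Cpa3* was largest in the female library. The intervals cover counting error over pooled UMIs and not the spread between barcodes, and differences between libraries were not tested.

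**Figure D2:**
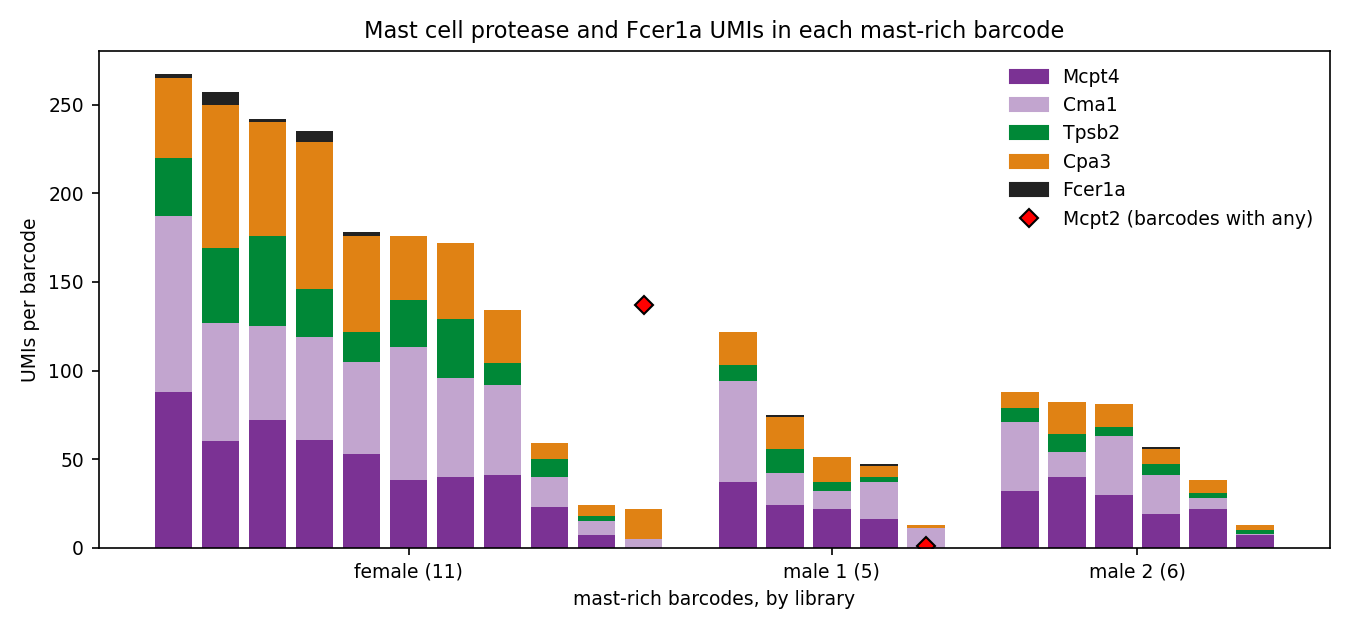
UMIs of the 5 genes in each of the 22 mast-rich barcodes, as stacked bars sorted by their sum within each library, with the number of barcodes in parentheses. Diamonds give *Mcpt2* UMIs in the 2 barcodes that hold any, 137 in a female barcode and 1 in a male 1 barcode. Both lack *Mcpt4* and *Tpsb2*, and sums run from 13 to 267.

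The same barcodes held several of the genes. Over all called barcodes, 23 held both *Mcpt4* and *Tpsb2*, which was 88.5% of the 26 with *Mcpt4* and 95.8% of the 24 with *Tpsb2*. *Cma1* and *Cpa3* shared 25 barcodes, 80.6% of 31 with *Cma1* and 78.1% of 32 with *Cpa3*. Of the 9 barcodes with *Fcer1a*, 8 held all 4 proteases. Of the mast-rich barcodes, 20 held all 4 proteases and 8 of those held *Fcer1a* as well.

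The balance of the 2 chymase genes is given per barcode. *Mcpt4* made up 33.6% of *Mcpt4* and *Cma1* UMIs, its lowest share where it was read, in a female barcode with 38 and 75 UMIs (exact 95% interval 25.0 to 43.1%). In a male 2 barcode with 40 and 14 UMIs it made up 74.1% (60.4 to 85.0%). In the female barcode with the most UMIs of the 5 genes, 88 and 99 UMIs gave 47.1% (39.7 to 54.5%). Over the 20 barcodes with *Mcpt4* its share ran from 33.6% to 87.5%, the last from 7 and 1 UMIs.

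In 2 mast-rich barcodes *Mcpt4* and *Tpsb2* were at 0. The first, from the female library, held 4713 UMIs with 5 of *Cma1*, 17 of *Cpa3* and 8 of the stem cell factor receptor gene *Kit*, and also 6 of the macrophage gene *C1qa* and 33 of *Cd74*. It was clustered with macrophage-like cells. The second, from male 1, held 1516 UMIs with 11 of *Cma1* and 2 of *Cpa3*, 5 of *Il4* and 4 of *Il13*, and fell in a lymphoid-like cluster led by natural killer cell genes. Neither was removed by its doublet score. Their scores, 0.0955 and 0.112, were the highest of the mast-rich barcodes in their libraries, where the others reached 0.0870 and 0.0527. The female barcode with 9 UMIs of the 5 genes was removed at 0.102. Whether these droplets held 1 cell or more was not tested.

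These barcodes were also where *Mcpt2* lay, a singling out made after its values were seen. *Mcpt2*, the gene of the mucosal mast cell protease mMCP-2, had 201 UMIs in 4 of the 23058 called barcodes. The female barcode without *Mcpt4* held 137 of them and the male 1 barcode held 1. The other two were male 2 kept cells below the mast-rich limit. One held 1414 UMIs with 52 of *Mcpt2*, 5 of the basophil protease gene *Mcpt8*, 2 of *Cpa3* and 1 of *Cma1*. The last, with 1060 UMIs, held 11 of *Mcpt2*, 2 of *Mcpt1*, which are all the *Mcpt1* UMIs in called barcodes, and 1 of *Fcer1a*. These male 2 cells had doublet scores of 0.0806 and 0.137, against at most 0.0545 in the male 2 mast-rich barcodes. None of the 26 barcodes with *Mcpt4* held *Mcpt2*, and each of the 4 with *Mcpt2* held 1 or more UMIs of *Cma1*, *Cpa3* or *Fcer1a*. Unlinked genes held by 26 and 4 of 23058 barcodes would also be expected to share none. The lack of overlap therefore cannot be read as exclusion. No 50-base window of the *Mcpt2* 3′ end occurred in another gene's transcript, and *Mcpt2* lies 14986 bases from *Mcpt4*. With 4 barcodes, and 1 library holding most of the UMIs, no test was made.

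**Figure D3:**
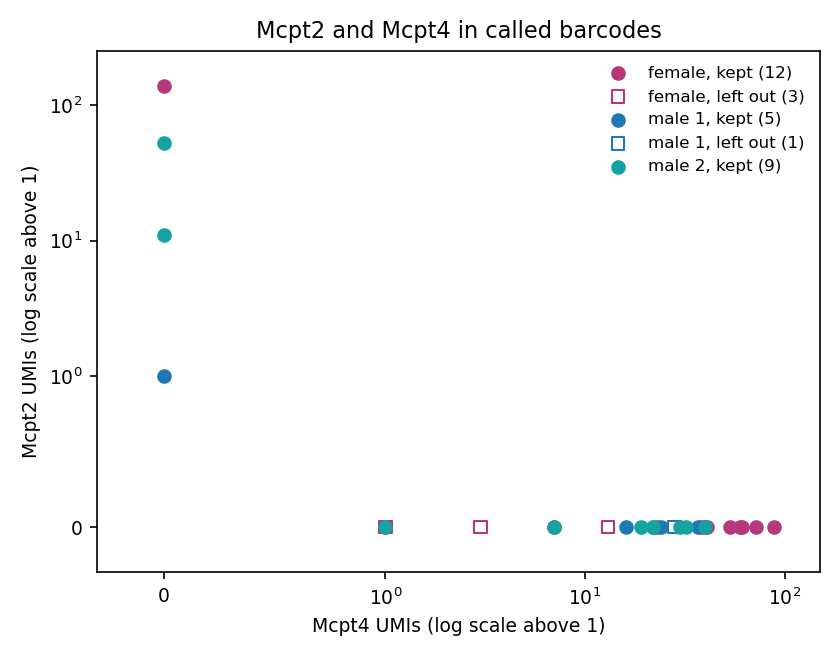
*Mcpt2* against *Mcpt4* UMIs (both axes logarithmic above 1) in the 30 called barcodes with either, by library. Filled circles are kept cells and open squares called barcodes left out, and points can lie on top of each other. The 26 barcodes with *Mcpt4* lie at 0 on the *Mcpt2* axis and the 4 with *Mcpt2* at 0 on the *Mcpt4* axis. Unlinked genes held by so few barcodes would not be expected to overlap either.

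Other granule proteases were sparse. *Prss34*, encoding mMCP-11, a tryptase known from basophils and mast cells, had 15 UMIs in 3 barcodes, 7 each in 2 female barcodes and 1 in a male 2 barcode, all with *Mcpt4*. *Tpsg1* had 11 UMIs in 9 barcodes, *Tpsab1* 6 in 2 and *Ctsg* 2 in 1, and each of these barcodes was mast-rich and held *Mcpt4*. *Mcpt8* had 7 UMIs in 3 barcodes, of which 2 lay in mast-rich barcodes. *Mcpt9* was at 0 in all called barcodes. *Gzmb*, shared with cytotoxic lymphocytes, had 124 UMIs, and 2 of them were in a mast-rich barcode.

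Clustering without the 5 genes among its features put 18 of the 22 mast-rich barcodes in 1 cluster of 69 cells. Its leading genes were *Mcpt4*, *Cma1*, *Cpa3* and *Tpsb2* beside immunoglobulin genes of plasma cells such as *Igkc* and *Jchain*, so the cluster was left unnamed. Of its 51 other cells, 1 held a UMI of the 5 genes and 4 held 20 or more *Jchain* and *Igkc* UMIs. What the remaining cells were was not identified. The remaining 4 mast-rich barcodes lay in a macrophage-like, an acinar-like and a pair of lymphoid-like clusters. This grouping was found at Louvain resolution 1. At resolution 0.5, 20 of the 22 mast-rich barcodes fell in a lymphoid-like cluster of 1584 cells, so the small separate cluster depended on the resolution.

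The transcripts were all but absent from the other kept cells. Mast-rich barcodes held 99.2%, 99.7% and 98.4% of all UMIs of the 5 genes in kept cells of the female, male 1 and male 2 libraries, and 2433 of 2454 over all (99.1%, exact 95% interval 98.7 to 99.5%). The other 21 UMIs lay in 16 of 18322 kept cells, and 14 of those cells held 1 UMI.

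Macrophage-like cells, the most numerous leukocytes, held 2 UMIs of the 5 genes in 2743 cells outside the mast-rich barcodes, 1 of *Cma1* in the female library and 1 of *Cpa3* in male 1. That was 0.0729% of the cells (exact 95% interval 0.00883 to 0.263%), at median depths of 3565, 1747 and 1430 UMIs. Endothelial-like cells, which do not make these proteases, held the genes in 0 of 1756 cells (exact 95% interval 0 to 0.210%). Their median depths were 2559, 1382 and 1120 UMIs. Acinar-like cells had 2 holders among 5378. These shares rest on 0 to 2 holders each and their order cannot be read.

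Free RNA was measured in barcodes not called as cells. In those with 10 to 100 UMIs, the 5 genes had 0, 1 and 0 UMIs among 67990, 231705 and 172853 in the female, male 1 and male 2 libraries, too few to set a level. In those with over 500 and up to 2000 UMIs, a range chosen after seeing the data because it holds 79.0%, 81.5% and 77.2% of uncalled UMIs, the genes had 36, 37 and 11 UMIs, or 0.498, 0.592 and 0.247 CPM. Every one of these barcodes held at most 1. The part of a cell class that was free RNA was taken as its share of tear-product UMIs divided by that of the free RNA. From this, 1.502 UMIs of the 5 genes were expected in macrophage-like cells from this higher range and 3.31 from the 10 to 100 range, which rests on 1 UMI. The exact Poisson interval of the 2 UMIs found, 0.242 to 7.22, held both values. From barcodes with 1 to 9 UMIs 25.3 were expected. The count of 2 leaves out the female mast-rich barcode that clustered with the macrophage-like cells and held 22 UMIs of the 5 genes, 6 of *C1qa* and 33 of *Cd74*. Outside that barcode, a level above the free RNA was not detectable at this depth.

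The other classes were compared with the free RNA in the same way, and the outcome turned with the range of barcodes used. Fibroblast-like cells held 4 UMIs in 2877 cells (interval 1.09 to 10.2) against 1.36 expected from the higher range, 2.87 from the 10 to 100 range and 23.3 from barcodes with 1 to 9 UMIs. Endothelial-like cells held 0 against 0.841, 2.14 and 13.6. Lymphoid-like cells held 7 against 0.794, 1.51 and 13.8. Of these, 4 were *Cma1* UMIs in 1 female barcode with 9 UMIs of *Nkg7* and 0 of *Mcpt4*, *Tpsb2*, *Cpa3* and *Kit*. Monocyte-like or dendritic-like cells held 3 in 500 cells against 0.228, 1.08 and 2.34, all in the male 2 barcode with 52 *Mcpt2* UMIs. Over the lymphoid-like, monocyte-like or dendritic-like, endothelial-like, fibroblast-like and mural-like cells together, 14 UMIs stood against 3.29, 7.80 and 54.2 expected, so the direction of the difference was not settled. As 7 of the 14 lay in 2 barcodes, no counting interval is given for these sums.

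Over whole libraries, a smaller share of these transcripts than of tear products lay outside called barcodes. Outside the called barcodes lay 60 of 1917 UMIs of the 5 genes in the female library (3.13%), 47 of 408 in male 1 (11.5%) and 22 of 388 in male 2 (5.67%). Tear-product UMIs lay outside by 66.9%, 67.8% and 58.1%, and UMIs of all genes by 59.2%, 65.4% and 56.4%.

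**Figure D4:**
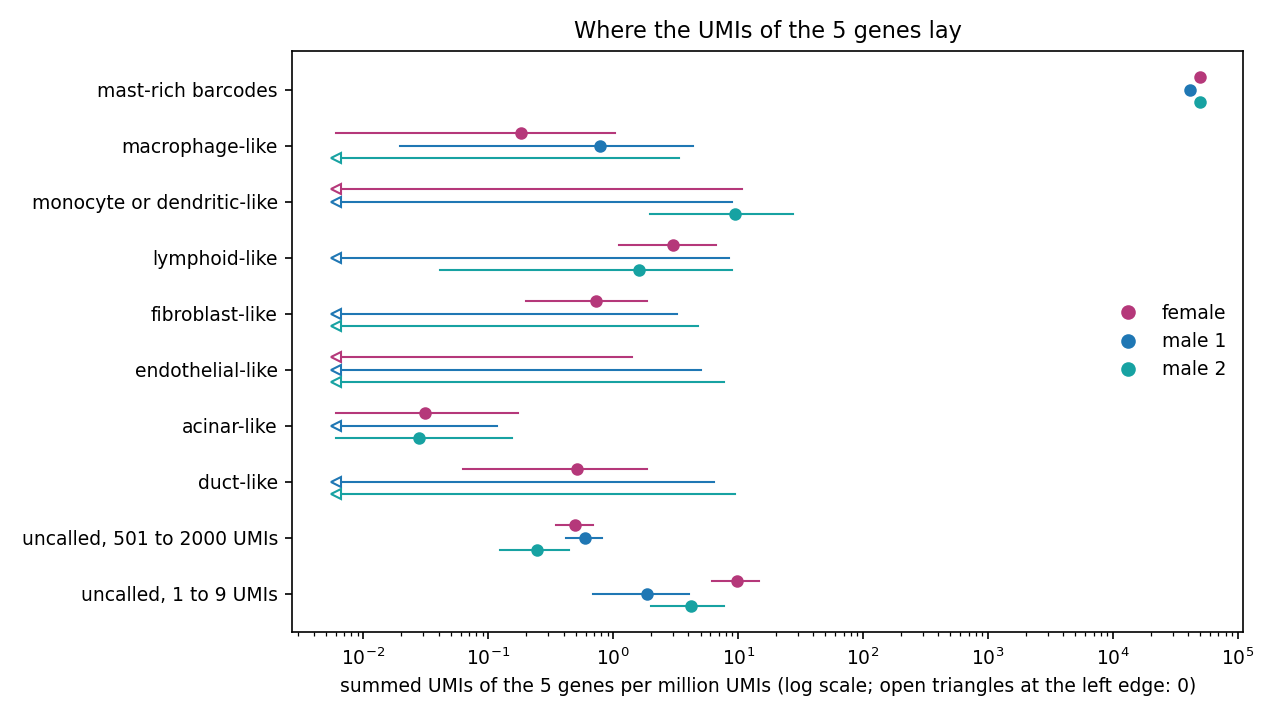
Summed UMIs of the 5 genes in CPM (log scale) in mast-rich barcodes, in other kept cells by class and in uncalled barcodes, 1 point per library, with exact 95% Poisson bars except for the mast-rich barcodes. Open triangles at the left edge stand for 0. Mast-rich barcodes lie at 41111 to 49827 CPM and macrophage-like cells at or below 0.782.

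To see what else the mast-rich barcodes expressed, their summed counts were compared with those of the other kept cells with a *Ptprc* UMI, the pan-leukocyte gene, within each library (11, 5 and 6 barcodes with 35764, 7492 and 7205 UMIs against 1823, 343 and 352 cells). *Ptprc* itself was read from 4 of the 22 mast-rich barcodes, all female. With edgeR's quasi-likelihood test and the library as a block, 59 of 3383 tested genes were called higher (1.74%) and 69 lower (2.04%), 3.78% in either direction, at a Benjamini-Hochberg adjusted p under 0.05. The median log2 change of all tested genes was -0.88 and moved to 0.39 when libraries were scaled by total UMIs, which gave 190 higher and 60 lower. Each change was tested against 0 and not against that median, so the calls depend on the scaling. Leaving out the female library gave 20 higher and 219 lower, leaving out male 1 gave 22 and 0, and leaving out male 2 gave 38 and 3, each with fewer genes tested.

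Both histamine genes tested, *Hdc* and *Slc18a2*, rose. *Hdc*, encoding the enzyme that makes histamine, reached 1678, 1735 and 972 CPM in mast-rich barcodes of the female, male 1 and male 2 libraries and at most 1.21 CPM in the other *Ptprc*-positive cells, without overlap (log2 fold change 9.58 ± 1.29 SE, adjusted p = 3.1e-11). *Slc18a2*, the vesicular monoamine transporter that loads histamine into granules, had 18, 0 and 2 UMIs there against 2 in all other *Ptprc*-positive cells (9.96 ± 1.00, adjusted p = 5.7e-20). Of the 10 listed genes for histamine, prostaglandin and leukotriene synthesis, 5 were tested, 2 were higher and 0 lower, with a median log2 change of -0.85. The prostaglandin D2 synthase gene *Hpgds*, with 119 against 125 CPM, did not pass the test. *Tph1*, for serotonin synthesis, and *Cyp11a1*, a steroid synthesis gene, did not pass the filter on low counts. They had 13 and 12 UMIs in mast-rich barcodes and 0 in the other *Ptprc*-positive cells. Over all called barcodes they had 14 and 23 UMIs, so *Cyp11a1* was not confined to mast-rich barcodes.

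Among 7 tested receptors and surface proteins of 10 listed, 4 were higher and 0 lower, with a median of 4.396. *Mrgprb1*, of a family of mast cell receptors for basic peptides, had 41, 4 and 6 UMIs in the female, male 1 and male 2 mast-rich barcodes and 0 in the other arm, at least 2988-fold higher when that arm is set to 3 counts over the group (adjusted p = 1.3e-12). The adenosine A3 receptor gene *Adora3* was higher by 6.63 ± 0.87 (adjusted p = 8.1e-12). *Kit*, with 895, 534 and 1249 CPM against 8.95, 2.56 and 6.04, was higher by 5.72 ± 1.01 (adjusted p = 2.5e-06), and its adjusted p was 0.093 without male 1. *Il1rl1*, the IL-33 receptor gene, was higher by 4.396 ± 1.01 (adjusted p = 0.0011), and its adjusted p was 0.60 without male 1. *Fcer1g*, the signalling chain shared by Fc receptors of many myeloid cells, was at 1149 against 1076 CPM and did not pass. The *Ms4a2* and *Cd200r3* genes, untested for low counts, had 10 and 13 UMIs in mast-rich barcodes and 0 in the other arm.

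Of the transcription factors, *Gata2*, required for mast cell development, was higher by 7.99 ± 1.03 (adjusted p = 5.4e-12), with 19, 3 and 0 UMIs in mast-rich barcodes and 9 in the other arm, though 1 of those 9 lay in male 2. *Mitf*, with 3 UMIs, did not pass, and 2 of 7 listed were tested. Among the 5 genes of the granule proteoglycan, heparin on a serglycin core, all were tested, 2 were higher and 0 lower, with a median of 2.48. *Hs6st2*, a heparan sulfate 6-O-sulfotransferase gene, was higher by 9.40 ± 1.03 (adjusted p = 4.9e-17). It had 12, 2 and 0 UMIs in the female, male 1 and male 2 mast-rich barcodes. Against all other kept cells the *Hs6st2* change was 4.48 ± 0.67. *Ndst2*, whose enzyme sulfates heparin in mast cells, was higher by 5.08 ± 0.80 (adjusted p = 6.1e-08), with 11, 1 and 0 UMIs. The serglycin gene *Srgn* was at 3191 against 650 CPM but did not pass after scaling (0.44 ± 0.87).

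Cytokine genes were divided. Of 12 listed, 9 were tested, 4 were higher and 1 lower, with a median of 3.43. *Il4* rose the most, with 531, 934 and 972 CPM against 0.551, 0 and 2.42 (8.42 ± 1.11, adjusted p = 1.0e-11), and was read from 15 of the 22 barcodes. *Ccl7*, a monocyte-attracting chemokine gene, had 42, 22 and 45 UMIs and 1175, 2937 and 6247 CPM against 41.5, 101.01 and 76.1 (3.64 ± 0.89, adjusted p = 0.0029). Without male 1 or male 2 its adjusted p was 0.68 and 0.15. *Il13* (3.92 ± 0.92) and *Il6* (5.15 ± 1.08) were called higher from 8 and 6 UMIs in 3 barcodes each. The male 1 barcode without *Mcpt4* held 4 of the *Il13* and 3 of the *Il6* UMIs, and 5 of the 7 male 1 *Il4* UMIs. The female barcode without *Mcpt4* held 1 more of *Il6*. With all other kept cells as the other arm, *Il6* did not pass (edgeR adjusted p = 0.12). *Ccl2*, at 3646 against 132 CPM, did not pass (2.67 ± 0.94, adjusted p = 0.072). *Ccl4*, a macrophage chemokine gene, was lower by edgeR (-3.24 ± 0.94, adjusted p = 0.020).

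Of the 10 listed granule proteases apart from the 5 genes, *Mcpt2* and *Prss34* were tested and both were called higher, at least 8085-fold and 879-fold against 3 counts over the other arm, whose UMIs were 0. Those 2 calls rest on the few barcodes described above, and neither passed with DESeq2 (adjusted p = 0.14 and 0.15). The male 2 kept cells with 52 and 11 *Mcpt2* UMIs held 0 *Ptprc* UMIs, so they lay in neither arm. With all other kept cells as the other arm, the log2 fold change of *Mcpt2* was 9.56 ± 1.77 against 14.7 ± 2.24. Of the 4 basophil genes listed, 2 were tested, *Prss34* and *Il4*, and both were higher.

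Several macrophage and antigen presentation genes were lower. Of 6 macrophage genes, 3 fell and 0 rose, with a median of -4.88, or -3.96 with *Adgre1*, at 0 in mast-rich barcodes, set to its bound. *C1qb*, a complement gene, was at 99.1 against 1571 CPM (-5.44 ± 1.13, adjusted p = 0.00017). Of 5 antigen presentation genes 4 fell and 0 rose, with a median of -5.11, led by the invariant chain gene *Cd74* (-6.17 ± 1.13, adjusted p = 7.8e-06). All 6 *C1qa* UMIs, all 31 of *H2-Eb1* and 33 of 34 of *Cd74* in mast-rich barcodes lay in the 1 female barcode with *Mcpt2*. Without male 1, or without male 2, none of these 7 calls passed. For T, NK and ILC genes, 3 of 6 were tested and 0 passed either way with edgeR or DESeq2, with a median of -2.49 and 2 lower at an unadjusted p under 0.05. For 8 digestion stress genes the edgeR count was 0 each way, with a median of 0.62 and 3 higher and 1 lower at an unadjusted p under 0.05. With total UMI scaling 6 were higher, and with DESeq2, or without the female library, 4 were higher and 1 lower. *Jun* was at 6778 against 858 CPM. For tear products, 38 of 109 were tested with 0 calls by edgeR, a median of -1.999 and 25 lower at an unadjusted p under 0.05. DESeq2 called 7 lower, and edgeR called 25 of 34 lower without the female library, 22 of 61 with no filter on low counts and 32 of 56 against all other kept cells.

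**Figure D5:**
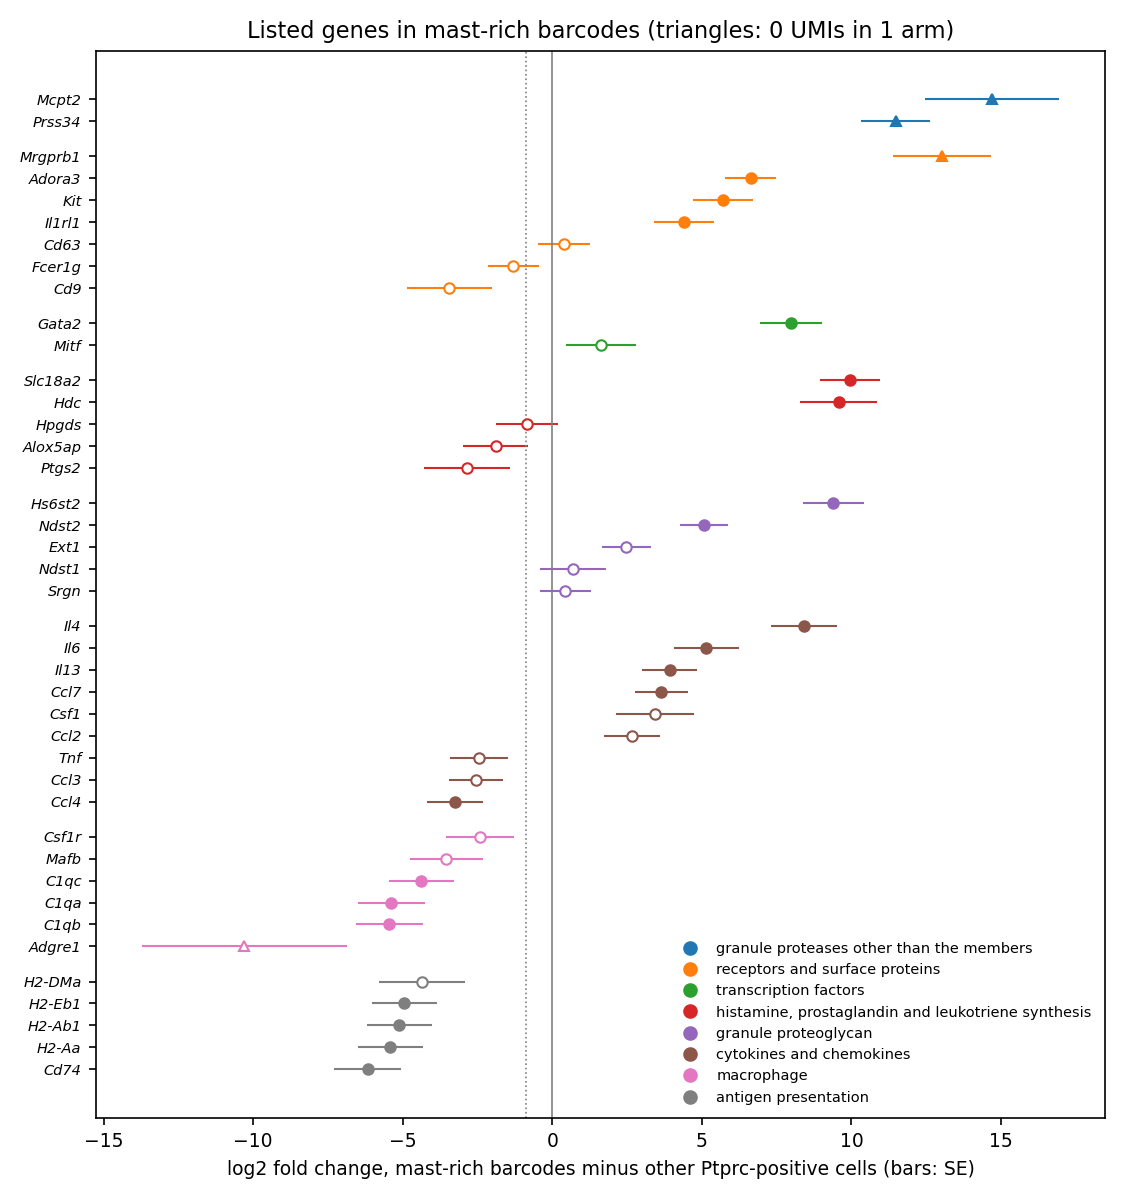
Log2 fold change of each tested gene of 8 lists, mast-rich barcodes minus other *Ptprc*-positive cells, with the SE from the edgeR test. Filled symbols passed an adjusted p of 0.05, and the dotted line marks the median of all 3383 genes, -0.88. Triangles are genes at 0 UMIs in 1 arm, whose place depends on the fitting and is no bound.

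The 10 genes with the largest rise among those called and higher in 3 of 3 libraries were *Mrgprb1*, *Slc45a3*, *Slc6a4*, *Hdc*, *Il4*, *Serpinb1a*, *Adora3*, *Adamts9*, *Kit* and *Tiam2*. *Slc45a3*, a solute carrier gene, had 13, 2 and 3 UMIs against 0 in the other arm, at least 1055-fold higher (adjusted p = 1.5e-20). *Slc6a4*, the serotonin transporter gene, had 14 UMIs in 11 barcodes against 1 (9.84 ± 1.09, adjusted p = 1.4e-16). *Serpinb1a*, an inhibitor of serine proteases of granules, was at 2266, 2536 and 2082 CPM against 6.75, 3.84 and 0 and was read from 20 of the 22 barcodes (8.003 ± 1.12, adjusted p = 2.4e-10). The secreted metalloprotease gene *Adamts9* and the Rac exchange factor gene *Tiam2* rose by 5.80 ± 1.05 and 5.42 ± 1.10, from 7 and 6 UMIs. With all other kept cells as the other arm, *Adamts9* did not pass (1.82 ± 0.79, edgeR adjusted p = 0.20). The 5 genes with the largest fall were *Ctsb*, *Ccl5*, *Ifit2*, *Ctsh* and *Sdc4*, each at 0 UMIs in the mast-rich barcodes. *Ctsb*, encoding the lysosomal protease cathepsin B, was at 699, 500 and 412 CPM in the other cells, so it was at least 11.0-fold lower against 3 counts over the mast-rich group (adjusted p = 0.00012). For the other 4 the bounds were 8.49, 6.58, 5.20 and 4.31. Without male 1 none of these 5 falls passed, with edgeR adjusted p from 0.31 for *Ctsb* to 0.68 for *Sdc4*. *Ifit2*, *Ctsh* and *Sdc4* did not pass without male 2 either.

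Likeness to the 5 genes was measured as the share of a gene's UMIs in all kept cells that lay in mast-rich barcodes, over 251 genes with at least 20 UMIs there. The 5 genes define these barcodes, so their own shares, 95.7% to 99.7%, follow from the rule. Of the other genes, *Mrgprb1* had the highest share (98.1%), with 97.6%, 100% and 100% in the female, male 1 and male 2 libraries. *Hdc* was next (72.1%), with 72.3%, 76.5% and 63.6%. *Mcpt2* (68.7%) was at 100%, 100% and 0%, and 137 of its 138 mast-rich UMIs came from the 1 female barcode. *Slc18a2* (57.1%) was at 62.1%, 0% and 66.7%, and *Il4* (53.2%) was at 61.3%, 41.2% and 50%. *Serpinb1a*, the eleventh, was at 24.9%. *Kit* was at 7.11%. Its level was 893 ± 358 CPM (SD, n = 3 libraries) in mast-rich barcodes and 63.9 ± 17.7 in *Ltf*+ epithelial-like cells.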

How the data were processed

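Per-gene UMI counts of each barcode were deposited by the authors, made with Cell Ranger 6.1.2 and mm10 (submitters' notes) from 10x 3′ libraries, before their correction for free RNA, doublet removal and filters. One set holds all barcodes (its header names Cell Ranger 4) and one the called barcodes. Cells with over 500 UMIs, over 200 genes and under 15% mitochondrial UMIs were kept, and the highest doublet scores (scrublet in scanpy 1.11.5, 0.8% per 1000 barcodes) were removed. Counts were not corrected for free RNA, and the doublet method differs from the study's too. Cells were clustered with sctransform 0.4.2 and Seurat 5.3.0 (3000 features, 30 dimensions, Louvain resolution 1) without the 5 genes, tear-product, mitochondrial, ribosomal, hemoglobin or sex-linked genes, and clusters were named from marker lists.

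Sums per library and arm were tested with edgeR 4.0.16 (TMM, filterByExpr, quasi-likelihood, library as block, Benjamini-Hochberg, 3 libraries), with the 5 genes and *Ptprc* left out. The procedure was tested on simulated data. The block joins both arms of the same pooled animals. Each edgeR SE is the absolute log2 change divided by the square root of the test's F value. It is not the spread of the libraries' own changes. Alternatives covered the mast-rich limits, doublets, mitochondrial share, scaling, count filter, block, DESeq2 1.42.0, other cells, each library left out, free RNA ranges and clustering resolution. Named genes were the 5 genes, up to 4 called genes per list, the 10 largest rises in 3 of 3 libraries, the 5 largest falls in 3 of 3 and the 10 genes most confined to mast-rich barcodes. Members, lists and markers were chosen with earlier results of these data known. Intervals and floors cover counting error only.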

Additional observations from a re-analysis of the deposited data

Results flagged for a closer look

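Called barcodes outside the kept cells held mast cell transcripts at the level of mast-rich barcodes. A female barcode removed for its doublet score had 67 summed UMIs of the 5 genes (13 of *Mcpt4*, 27 of *Cma1*, 13 of *Tpsb2* and 14 of *Cpa3*) with 6 of *Hdc*. A male 1 barcode removed for a mitochondrial share of 18.2% had 52 (28, 8, 7 and 9 of the same genes). With both, 24 called barcodes met the mast-rich limits.

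Uncalled barcodes with 1 to 9 UMIs in all held 23 UMIs of the 5 genes in the female library, 6 in male 1 and 10 in male 2, or 9.79, 1.87 and 4.18 CPM (exact 95% Poisson intervals 6.20 to 14.7, 0.687 to 4.08 and 2.00 to 7.68). In the female and male 2 libraries these intervals lay above those of uncalled barcodes with over 500 and up to 2000 UMIs, 0.349 to 0.690 and 0.123 to 0.441. In male 1 the interval overlapped that of the larger barcodes, 0.417 to 0.816. The cause was not tested.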

How the results depend on the processing

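The number of mast-rich barcodes stayed within 20 to 24 under every limit, doublet and mitochondrial setting tried. Their share of kept-cell UMIs of the 5 genes moved from 99.1% to 98.1% with at least 20 summed UMIs and to 97.7% with at least 3 genes. Counts of genes called higher were 190 with total UMI scaling and 90 with DESeq2, against 59. Counts called lower were 266 with no filter on low counts, 243 without the replicate block (2249 genes tested, 82 higher), 300 against all other kept cells, 210 with at least 3 genes per barcode and 157 with DESeq2, against 69. Leaving out each library gave 20 to 38 higher and 0 to 219 lower, with fewer samples and 1838 to 3090 genes tested. The causes of these shifts were otherwise not tested. Without male 1, which left 0 lower, 144 genes had an unadjusted p under 0.05. Of the 32 named genes none changed direction in any setting. Without male 1, 15 of the 24 still tested lost their call, without male 2 11 of 28 and without the female library 1 of 17, while the block changed none of 24. With all other kept cells as the other arm 4 of 32 lost their call, and with DESeq2 2 of 32. Observed minus expected UMIs were -1.31 in macrophage-like cells and 6.20 in the other classes, and became -23.3 and -40.2 with free RNA from uncalled barcodes of 1 to 9 UMIs. The range over 500 and up to 2000 UMIs, added after seeing the data, gave 0.498 and 10.7. For genes other than the most abundant, 7205 to 35764 UMIs per library in mast-rich barcodes limit the comparison.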

Other observations

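*Kitl*, which encodes stem cell factor, the ligand of the receptor *Kit* that mast cells need, had its highest level in myoepithelial-like cells, at 1105, 561 and 588 CPM in the female, male 1 and male 2 libraries (752 ± 307, SD, n = 3). Endothelial-like cells followed with 432, 157 and 108 CPM (232 ± 175), mural-like cells with 172, 94.8 and 87.6 CPM (118 ± 46.9) and duct-like cells with 78.1 ± 48.9 CPM. Myoepithelial-like cells were above endothelial-like cells in 3 of 3 libraries. Fibroblast-like cells were at 41.4 ± 27.5 CPM, macrophage-like cells at 3.92 ± 1.53 and acinar-like cells at 0.441 ± 0.504. Mast-rich barcodes held 0 *Kitl* UMIs. These levels were not tested.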
